A study of Mus musculus and blank sample with 191 samples.

Results

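The genes described here are 10 genes of T cells and uterine natural killer (NK) cells, read across the epithelium and stroma of the mouse endometrium. They were chosen by name as Cd3e, Cd8a, Cd4, Il2rb, Il15, Nkg7, Ncr1, Prf1, Gzma and Gzmb, a rule that uses no measured value, although the list was drawn up with earlier results of these data known, and all 10 were among the 19962 targets of the count table. The study compared uteri of wild-type mice, labelled N/N and called WT here, with uteri of mice labelled PV/N, called PV here. PV mice carry the Thra1PV/+ genotype, that is, 1 mutant and 1 normal allele of the gene for thyroid hormone receptor α1, and the mutant receptor is dominant negative. The allele is inherited, so every cell of a PV uterus carries it, and nothing in the comparison separates leukocytes that carry the mutation from leukocytes in a mutant uterus. All mice were female, were matched to the metestrus phase and received no other treatment. Ages in the labels, read here as months, ran from 2.4 to 6.3 in PV mice and from 4 to 9 in WT mice.

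Cores of fixed uterus were profiled with the GeoMx Whole Transcriptome Atlas, in which a probe for each target is released by light from a chosen region and counted by sequencing. A pathologist chose the regions on morphology and on marker staining, so no gene described here selected them. The 95 regions of the first plate, 60 of epithelium and 35 of stroma, were summed per mouse and compartment, which gave 14 epithelium sums (6 PV, 8 WT) and 13 stroma sums (6 PV, 7 WT). The labels name 14 mice where the design text counts 13. Totals per sum ran from 61691 to 13492500 counts, and mouse PV2 had 1 region per compartment and only 1 to 5 counts per member, which is at or close to the floor, since the authors replaced every 0 by 1.

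T cells carry the T cell receptor with its CD3 chains, and divide into CD8 cells, which kill, and CD4 cells, which help or regulate. NK cells kill without such a receptor, and the uterus holds its own NK population, which depends on interleukin 15 (IL-15) made by other cells and is best known for its part in early pregnancy. Both kinds of killer cell store perforin and granzymes in granules. In summed tissue, fewer cells of a type and less RNA per cell cannot be told apart.

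The compartment labels of the first plate were borne out by their defining genes. Krt8 and Epcam, which mark simple epithelium, were lower in stroma by log2 differences of -4.22 ± 0.17 and -3.90 ± 0.18 (± SE throughout for log2 differences, 13 mice). Col1a1 and Dcn, made by fibroblasts, were higher there by 2.94 ± 0.17 and 3.34 ± 0.19, and Ptprc, the pan-leukocyte gene, by 2.19 ± 0.13. The labels of the second plate were not borne out in the same way, since 24 of its 57 regions labelled epithelium had fibroblast genes above columnar genes, so the second plate entered no main result.

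Every member was first set against the background of the assay. The negative probes match no mouse transcript, and their per-probe level, NegProbe-WTX, is what a silent target is expected to read, so a member's ratio to it says how far the member stood above background. Efficiency differs from probe to probe, so the ratios are not read as an order of RNA levels between genes. In stroma the median ratio over mice was 8.58 for Il2rb, 7.24 for Il15, 5.48 for Nkg7, 3.39 for Gzmb and 3.01 for Gzma. These were the 5 highest ratios. The other 5 lay between 2.08 and 2.67 in stroma, namely Cd3e at 2.67, Cd8a at 2.60, Ncr1 at 2.23, Prf1 at 2.17 and Cd4 at 2.08. In epithelium all 10 members lay between 1.15, the value of Cd4, and 2.81, the value of Il15.

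Taking a ratio under 2 as near background, 7 of the 10 members were near it in epithelium, where 38.4% of all targets were, and none was in stroma, where 28.9% of all targets were. The 7 were Cd8a, Cd4, Nkg7, Ncr1, Prf1, Gzma and Gzmb, and the first of these, at 1.98, and Cd3e, at 2.00, sat on either side of the limit. No member was near background in both compartments, with the limit at 2. Against the single negative probes, whose spread is wide, the picture was stricter. Il2rb in stroma, with 1397 counts in all, was the only member and compartment above the brightest of the 210 negative probes, which reached 1111 counts in stroma and 3056 in epithelium. That probe was more than 5 times the median negative probe in both compartments, and it was the only negative probe that was. In stroma, Il15, Nkg7, Gzmb, Gzma and Cd3e lay above 209 of the 210 negative probes in total counts. Cd8a, Cd4, Ncr1 and Prf1 lay above 207 there. In epithelium the members lay above between 173 of them, for Cd4, and 208, for Il15. A further limit was set for each sum at 2 SD above the mean of its negative probes, both taken on the log2 scale. In stroma it was passed in 13 of 13 mice for Il2rb, 12 for Il15, 11 for Nkg7, 9 for Gzmb, 8 for Cd3e and 7 for Gzma. It was passed in only 5 for Cd8a and Prf1 and 4 for Cd4 and Ncr1.

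**Figure D1:**
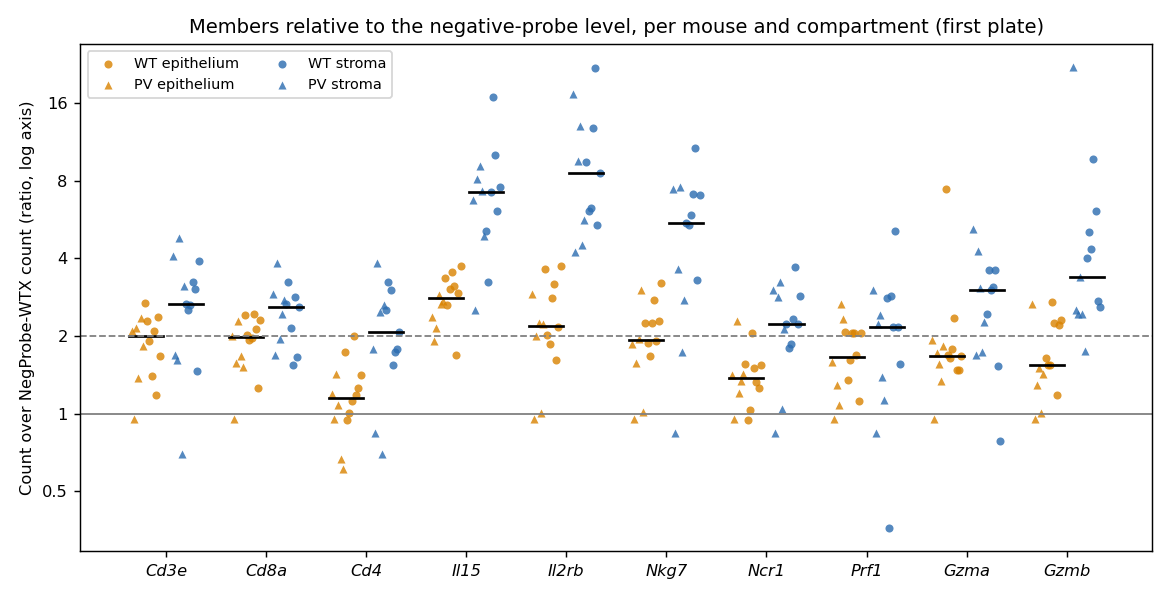
Ratio of each member's summed count to the negative-probe level of the same regions, on a log axis, with 1 point per mouse and compartment (circles WT, triangles PV), a bar at the median, a solid line at a ratio of 1 and a dashed line at 2. The median ratio in stroma reached 8.58 for Il2rb, 7.24 for Il15 and 5.48 for Nkg7, while the medians in epithelium lay between 1.15 and 2.81.

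Stroma was compared with epithelium within mice, to ask where in the endometrium these genes are found. Each of the 9 members that could be tested was higher in stroma, by 1.42-fold for Cd8a up to 4.43-fold for Il2rb (edgeR quasi-likelihood test with the mouse as a block, adjusted p at most 0.0134). Such calls were common, as 63.0% of the 14881 targets tested were called in either direction and 34.6% were higher in stroma. The median log2 difference was 1.02 over the 9 members and 0.05 over all targets tested. Cd4 was not among the targets that the authors' detection filter kept, and in a fit over all targets it was higher in stroma by 0.93 ± 0.17 (adjusted p = 8.38e-05).

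Background moved in the same direction. As a share of all target counts the negative-probe level was higher in stroma in 12 of 13 mice, at 7.25 ± 2.50 against 5.85 ± 3.56 counts per 1000000 (SD, n = 13), a mean log2 difference of 0.39 (exact sign-flip test, two-sided, p = 0.0022, adjusted p = 0.00659 over 3 tests). After the scaling used in the fits this difference was 0.16 ± 0.31 (SD), with 10 of 13 mice higher in stroma. The fit was repeated after NegProbe-WTX was subtracted from every target in each region, with negative results cut off, before summing. All 9 members were still called, with log2 differences from 0.81 for Cd8a to 2.77 for Il2rb. Taking a similar level from both compartments tends to enlarge a ratio between them. The background of a member's own probe can differ from NegProbe-WTX, and its part in the differences was not tested. With the doubtful labels of the second plate included, 6 of the 9 were called and the differences were smaller, Il2rb being at 1.17 and Il15 at 0.66.

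Il2rb encodes the β chain that the receptors for interleukin 2 and IL-15 share, found on NK cells and on part of the T cells, and lies at chr15:78479256-78495271 on the minus strand (GRCm38, as for all positions below). Its epithelium sums ran from 4.42 to 25.5 counts per 1000000 (CPM, on the TMM-scaled size of a mouse's sum), with a median of 12.8, and its stroma sums from 28.6 to 149 CPM, with a median of 50.8. Every stroma sum lay above every epithelium sum, which held for 2.85% of the targets tested. The log2 difference was 2.15 ± 0.13 (adjusted p = 8.28e-11).

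Il15 (chr8:82331632-82403222, minus strand), the cytokine that this receptor chain binds, was measured at 11.8 to 30.0 CPM in epithelium, with a median of 16.3, and at 22.7 to 79.1 CPM in stroma, with a median of 43.5. The stroma sum was the higher one in each of the 13 mice, as it also was for Il2rb and Gzmb, a pattern seen in 9.99% of the targets tested. The ranges of the compartments overlapped for Il15. The highest epithelium value came from PV2 with 2 counts. Apart from PV2, the epithelium value of WT1, 23.7 CPM from 39 counts, also lay above the stroma value of WT2, 22.7 CPM. The log2 difference was 1.51 ± 0.13 (adjusted p = 1.33e-08).

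Among the genes of killer cell granules, Nkg7 (chr7:43437073-43438249, plus strand), a granule membrane protein of NK and cytotoxic T cells, ran from 5.37 to 17.8 CPM in epithelium and from 10.2 to 73.0 CPM in stroma, with medians of 12.1 and 33.4. It was higher in stroma in 11 of 13 mice, the exceptions being PV2 and PV5 with 1 and 5 stroma counts, and the log2 difference was 1.64 ± 0.14 (adjusted p = 9.43e-09). Gzmb (chr14:56258838-56262260, minus strand), the granzyme that cuts caspases in a target cell, ran from 4.42 to 15.0 CPM in epithelium and from 14.5 to 125 CPM in stroma. All 13 mice had more of it in stroma, and the log2 difference was 1.57 ± 0.19 (adjusted p = 9.72e-07).

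The other granule genes had smaller estimates. Prf1 (chr10:61297833-61304680, plus strand) encodes perforin, which opens pores in the target membrane, and Gzma (chr13:113093825-113100981, minus strand) a granzyme with tryptic specificity. Prf1 was higher in stroma by 0.74 ± 0.18 (adjusted p = 0.00128), though in only 8 of 13 mice, with medians of 10.1 CPM in epithelium and 10.3 CPM in stroma. The medians thus lay close together, and WT5 had the highest stroma value at 34.6 CPM. The Prf1 call was lost in limma on per-mouse means (0.34, adjusted p = 0.18) and over both plates (0.21, adjusted p = 0.239). Gzma was higher in stroma by 0.68 ± 0.22 (adjusted p = 0.0134) and in 11 of 13 mice, with medians of 9.97 and 18.1 CPM. Without PV1 the Gzma difference was 0.53 (adjusted p = 0.0579), and with no mouse block it was 0.58 (adjusted p = 0.0987).

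Ncr1 (chr7:4337724-4345164, plus strand) encodes NKp46, an activating receptor that marks NK cells and other innate lymphoid cells. It ran from 5.35 to 17.2 CPM in epithelium and from 6.60 to 25.1 CPM in stroma, with medians of 7.69 and 16.1. The stroma value was higher in 12 of 13 mice and the log2 difference was 1.02 ± 0.13 (adjusted p = 1.87e-06). In epithelium no mouse had Ncr1 more than 2 SD above its negative probes on the log2 scale.

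The T cell members were higher in stroma as well. Cd3e (chr9:44998740-45009627, minus strand), a chain of the complex through which every T cell receptor signals, ran from 6.12 to 18.8 CPM in epithelium and from 4.40 to 26.9 CPM in stroma, with medians of 11.0 and 19.3. Its log2 difference was 0.72 ± 0.18 (adjusted p = 0.00175), and 10 of 13 mice were higher in stroma. Cd8a (chr6:71373427-71379173, plus strand), the coreceptor chain of killer T cells, had medians of 11.4 and 16.5 CPM and differed by 0.51 ± 0.15 (adjusted p = 0.00533), with 11 of 13 mice higher in stroma. Cd4 (chr6:124864692-124888221, minus strand), the coreceptor of helper T cells, had medians of 6.55 and 12.2 CPM, and 11 of 13 mice were higher in stroma, with the log2 difference of 0.93 ± 0.17 from the fit over all targets.

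**Figure D2:**
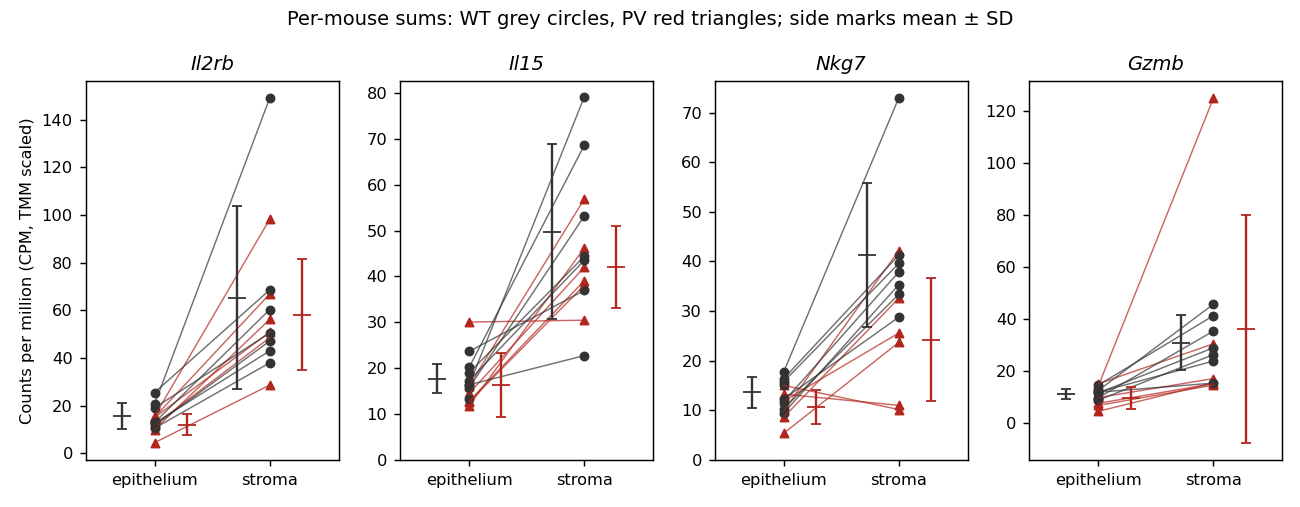
CPM of Il2rb, Il15, Nkg7 and Gzmb in every mouse (WT circles, PV triangles), with lines joining the compartments of a mouse and side marks for the group mean ± SD. Il2rb in stroma lay at or above 28.6 CPM in every mouse and in epithelium at or below 25.5 CPM, whereas PV and WT points overlapped within each compartment in all 4 panels.

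The other genes of these cell types and pathways that could be tested were mostly higher in stroma too, against 34.6% of all targets tested. Their lists were drawn up with earlier results of these data known. Only genes kept by the authors' detection filter, which was run on these same regions, could be tested. Of 18 further T cell genes, 8 were tested, 7 were higher in stroma and none lower, with a median log2 difference of 0.85. They included Thy1, a T cell surface protein that fibroblasts also make, at 1.87 ± 0.13, Trbc1, a constant region of the T cell receptor β chain, at 1.11 ± 0.13, Trdc, that of the δ chain, at 1.04 ± 0.13, Cd247, the ζ chain of the receptor complex, at 0.86 ± 0.11, and Cd3g at 0.84 ± 0.15. Of 27 further NK cell genes, 18 were tested, of which 17 were higher in stroma and 1 lower, with a median of 1.28. The called NK genes of lowest p were Tyrobp, an adaptor of activating receptors, at 2.33 ± 0.15, Ccl5, a chemokine, at 1.86 ± 0.15, Fcer1g, another adaptor, at 1.73 ± 0.14, Itga1, an integrin of tissue-resident lymphocytes, at 1.41 ± 0.12, and Ctsw, a cathepsin of killer cells, at 1.24 ± 0.13. Tyrobp and Fcer1g are made by macrophages as well, and 8 of 10 macrophage genes tested were also higher in stroma, with a median of 2.25.

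Signalling genes shared by T and NK cells went the same way, with 9 of 9 tested higher in stroma and a median of 0.59. Lck, the kinase that starts T cell receptor signalling, was higher by 1.02 ± 0.13 and Zap70 by 0.59 ± 0.12, while Lcp2 at 1.81 ± 0.15 and Fyn at 2.87 ± 0.13 are made in further cell types. In the IL-15 pathway list, 17 of 20 genes were tested, 9 were higher in stroma and 4 lower, with a median of 0.39. Il2rg, the γ chain that completes the IL-15 receptor, was higher by 1.56 ± 0.16, Bcl2, a survival protein, by 1.80 ± 0.16, Socs1, a feedback inhibitor of cytokine signalling, by 1.35 ± 0.16 and Tgfb1 by 1.31 ± 0.15. Cish, another feedback inhibitor that STAT5 induces, was lower in stroma by -1.50 ± 0.15, with medians of 67.7 CPM in epithelium and 22.7 CPM in stroma. General leukocyte genes were higher in stroma in 9 of 9 cases, with a median of 1.58.

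Genotype was compared within each compartment, since the study asked about lymphocytes in the mutant uterus. By immunohistochemistry the study counted more cells positive for CD3 and for CD8a in mutant endometrial stroma. Its bulk RNA sequencing also reported immune pathways, many of them of lymphocytes, as raised in mutant mice. In the spatial data it called genes between genotypes in both compartments with a linear mixed model, which differs from the test used here. Counts of stained cells and RNA summed over regions are different measures. The ranges of PV and WT mice overlapped for all 10 members in both compartments. In epithelium no member was called and no target was (0% of 14881), while 1223 targets had an unadjusted p under 0.05 in edgeR and DESeq2 called 28 targets, none of them a member. All 9 member estimates were below 0, with a median of -0.32 against -0.01 over all targets. This was not particular to the members, as 0 of 8 fibroblast genes (median -0.37) and 1 of 7 endothelial genes were above 0. General leukocyte genes were above 0 in 3 of 9 cases, macrophage genes in 4 of 10 and columnar epithelium genes in 6 of 9 (median 0.29). Whether the share of stroma cells in these regions differed between genotypes was not tested. Among the members the estimate with the lowest p was that of Nkg7, at -0.51 ± 0.22 (95% interval -0.98 to -0.05, adjusted p = 0.575), the only member with an unadjusted p under 0.05. Il15 was estimated at -0.36 ± 0.17 (adjusted p = 0.611), and its PV values of 11.8 to 30.0 CPM enclosed the WT values of 13.3 to 23.7 CPM, but the highest PV value was the 2 counts of PV2 and the other 5 PV mice lay between 11.8 and 16.2 CPM. Gzma was estimated at -0.67 ± 0.45 (adjusted p = 0.708), and without WT1, in which it reached 52.2 CPM, at -0.15. A test over single regions, which takes regions of a mouse as independent, called Il15, Nkg7 and Gzma in epithelium, and its p-values are too small for that reason.

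In stroma no member was called either, nor any target (0%), with 524 targets at an unadjusted p under 0.05 in edgeR, none of them a member, and 2 targets called by DESeq2. Cd3e averaged 17.8 ± 8.32 CPM in PV stroma and 17.8 ± 3.47 CPM in WT stroma (SD, n = 6 and n = 7), and its log2 difference was 0.15 ± 0.26 with a 95% interval of -0.39 to 0.68. Cd8a averaged 18.5 ± 6.61 CPM in PV stroma and 15.9 ± 5.08 CPM in WT stroma, a difference of 0.17 ± 0.29 with an interval of -0.44 to 0.78. Both intervals reached well to either side of 0, so they leave room for a modest rise or fall of the T cell genes and do not show that the genotypes were alike. Cd4, in the fit over all targets, was estimated at -0.09 ± 0.28 in stroma (adjusted p = 1.00).

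Among the NK and granule genes the stroma estimates went both ways. Il2rb averaged 58.1 ± 23.2 CPM in PV stroma and 65.1 ± 38.4 CPM in WT stroma (SD, n = 6 and n = 7), a log2 difference of -0.10 ± 0.31 with an interval of -0.75 to 0.55. Without WT5 this estimate turned to 0.26. Nkg7 was estimated at -0.50 ± 0.26 (interval -1.05 to 0.04, adjusted p = 1.00), with PV sums of 10.2 to 42.2 CPM and WT sums of 28.8 to 73.0 CPM. The groups overlapped in the range from 28.8 to 42.2 CPM, and the lowest PV values came from PV2 and PV5, whose stroma sums held 1 and 5 Nkg7 counts. Prf1 was estimated at -0.44 ± 0.33, Gzma at 0.35 ± 0.29 and Il15 at -0.24 ± 0.22. Ncr1 was estimated at -0.05 ± 0.25.

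Gzmb in stroma rested on a single mouse. Its PV sums had a median of 16.2 CPM and a mean of 36.3 ± 43.9 CPM (SD, n = 6), because PV1 reached 125 CPM while the other 5 PV mice lay between 14.5 and 30.5 CPM. The WT sums lay between 15.3 and 45.7 CPM, with a mean of 30.9 ± 10.5 CPM (SD, n = 7). The fitted difference was 0.47 ± 0.46, and without PV1 it was -0.95.

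The difference between the compartments was also compared between the genotypes. No member and no target was called (0% of 14881), with 1066 targets at an unadjusted p under 0.05 in edgeR and 1 target called by DESeq2. Gzma, at 0.88 ± 0.42 (adjusted p = 0.697), was the only member with an unadjusted p under 0.05, and Il2rb was at 0.43 ± 0.25 (adjusted p = 0.761). None of the T cell, NK cell, signalling or IL-15 pathway genes tested was called in any of the 3 comparisons that involve genotype. The negative-probe level was 6.76 ± 5.25 counts per 1000000 in PV and 5.28 ± 1.07 in WT epithelium, and 7.64 ± 3.44 in PV and 6.91 ± 1.52 in WT stroma (SD, exact permutation tests, two-sided, p = 0.646 and p = 0.672). The summed level of 9 B and plasma cell genes ran from 333 to 2381 CPM with a median of 1442 in PV stroma. In WT stroma it ran from 234 to 668 CPM with a median of 307. In epithelium the medians of this sum were 291 CPM in PV and 448 CPM in WT mice. A few abundant genes can carry such a sum. Of the 7 genes tested, 6 were above 0 in stroma, with a median log2 difference of 0.49, and 0 was called in either compartment. Klf9, the transcription factor on which the study turns, was estimated at -1.09 ± 0.21 in epithelium (adjusted p = 0.120) and at -1.31 ± 0.28 in stroma (adjusted p = 0.579). With its own test on these spatial data the study reported Klf9 as significantly lower in both mutant compartments. It also found less Klf9 RNA and protein in mutant uterus by qPCR and western blot. Age and genotype overlapped only from 4 to 6.3 months, and within that range no member was called for genotype.

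**Figure D3:**
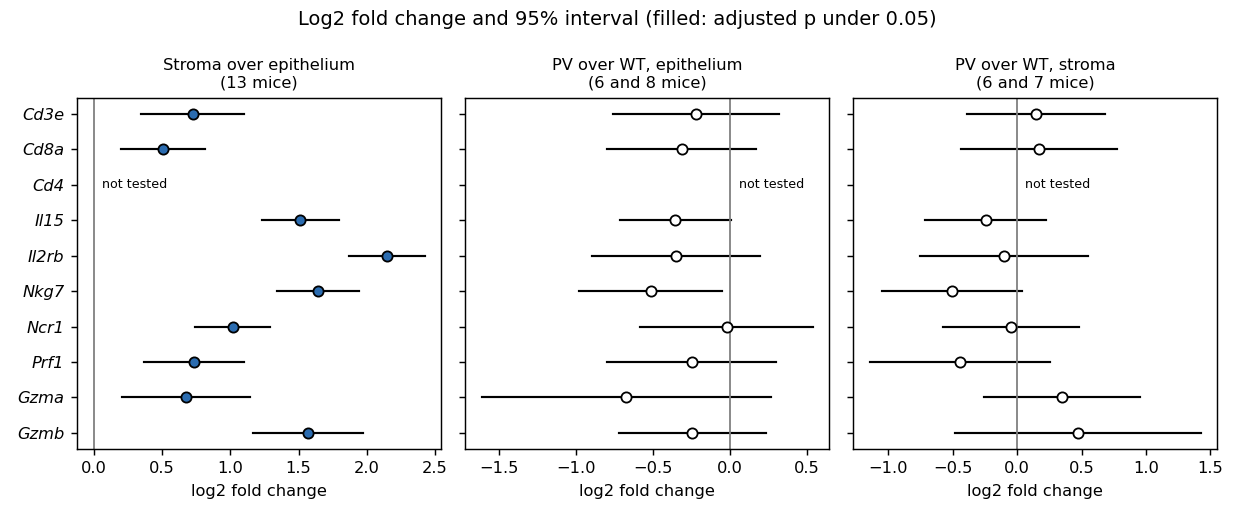
Log2 differences of the 9 tested members with 95% intervals, for stroma against epithelium and for PV against WT in each compartment, with filled points where the adjusted p was under 0.05. All 9 members lay above 0 for stroma against epithelium, and their intervals for PV against WT included 0 except that of Nkg7 in epithelium, which was not called after adjustment (adjusted p = 0.575).

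Within stroma the members varied from region to region and not only from mouse to mouse. CPM of a region is given on the region's own total, with no further scaling. A ratio to NegProbe-WTX of 5 or more was reached in 27 of 35 stroma regions by Il2rb, 26 by Il15, 22 by Nkg7 and 14 by Gzmb. For the other 6 members such regions were few, 5 for Cd3e, all in PV1 and PV4, 4 for Prf1 in PV1 and WT5, 4 for Gzma and 3 for Ncr1, all in PV1, 1 for Cd8a in PV1 and 1 for Cd4 in PV3. Sampling was uneven, as 10 of the 35 regions came from PV1 and 4 from PV4, against 1 to 3 from each WT mouse with stroma. These counts therefore do not compare the genotypes. The ratios also rest on low negative-probe counts, 2.19 for the highest Cd3e ratio. In epithelium they were 2 of 60 for Il2rb and 1 each for Il15, Gzma and Gzmb.

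The 10 stroma regions of PV1 showed the widest range. Gzmb ran from 13.5 to 294 CPM and Il2rb from 21.6 to 190 CPM among them, and 4 of the 10 regions held 76.8% of the 608 Gzmb counts. In these 4 regions Gzmb was at 294, 256, 179 and 159 CPM and Il2rb, in the same order, at 179, 190, 140 and 138 CPM, and Nkg7 lay between 53.3 and 66.0 CPM there against 12.4 to 37.9 CPM in the other 6. Gzmc and Klrd1, a granzyme and a receptor chain of NK cells that were named after their values were seen, were at 46.6 to 170 CPM and 33.1 to 55.2 CPM in the 4 regions, and at 4.98 to 70.3 CPM and 9.86 to 37.2 CPM in the other 6, so their ranges overlapped. Ncr1 was at 22.5 to 29.6 CPM in the 4 regions against 2.47 to 16.6 CPM in the other 6. The pan-leukocyte gene Ptprc was at 79.4 to 99.0 CPM against 32.1 to 64.8 CPM. The 4 regions were picked by their Gzmb counts and come from 1 mouse. How many of all targets part them from the other 6 was not counted. The ranges of Cd3e overlapped, at 12.1 to 43.3 CPM against 10.1 to 24.7 CPM. Those of Prf1 overlapped too, at 22.5 to 24.8 CPM against 4.50 to 27.0 CPM, where the highest of the 6 was the shallowest region, with 185025 counts in all. The fibroblast gene Dcn was at no more than 1005 CPM in the 4 regions and at 908 to 1253 CPM in the other 6.

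WT5 showed another pattern. All 3 of its stroma regions were high in Il2rb, at 141, 146 and 174 CPM, and in Nkg7, at 74.4, 76.5 and 79.6 CPM, and Gzmc lay between 94.0 and 123 CPM. Gzmb in the same regions was at 30.1 to 78.3 CPM, below the 4 high regions of PV1, and Prf1 was at 27.4 to 45.7 CPM. In the epithelium of WT1, 1 of 4 regions held 57 of 86 Gzma counts, or 66.3%, at 105 CPM against 18.7 to 28.7 CPM in the other 3. In that region Gzmb was at 5.51 CPM, Nkg7 at 9.19 CPM and Prf1 at 18.4 CPM, each within the range of the other 3 regions.

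**Figure D4:**
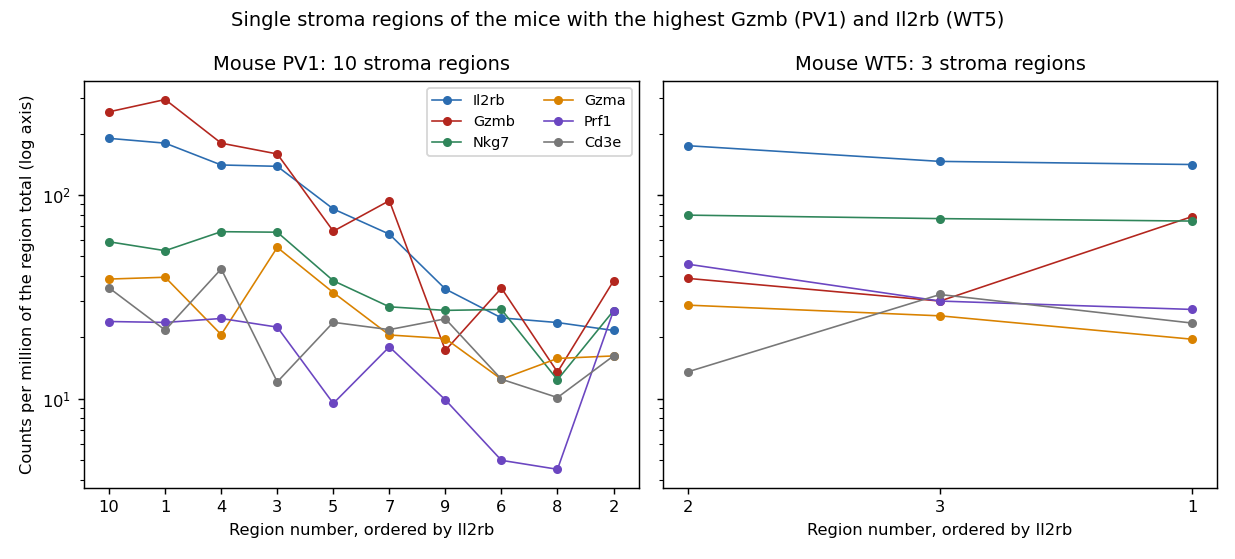
Single stroma regions of PV1 and WT5 on a log axis of CPM on the region total, ordered by Il2rb, for Il2rb, Gzmb, Nkg7, Gzma, Prf1 and Cd3e, with lines that only join the points of a gene. PV1 stroma spread over 13.5 to 294 CPM in Gzmb and 21.6 to 190 CPM in Il2rb, while the 3 regions of WT5 lay close together at 141 to 174 CPM in Il2rb.

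The promoters of Gzmb, Nkg7 and Prf1 are shown because these genes belong to the same granules. Their differences of stroma against epithelium were 1.57, 1.64 and 0.74 on the log2 scale, and no test compared these between the genes. Prf1 stood nearer background in stroma, at a median ratio of 2.17 against 3.39 for Gzmb and 5.48 for Nkg7. With background subtracted the differences were 2.33 for Gzmb, 2.31 for Nkg7 and 1.22 for Prf1. Whether the promoter sequences bear on these differences was not tested. Each run covers 250 bases before to 50 bases after the start of the gene in RefSeq on GRCm38.p6, on the gene's strand. RefSeq's starts differ from those of the GENCODE positions above, and the whole Gzmb run lies upstream of the GENCODE gene. Capitals mark matches on either strand to TGTGGT, a core bound by Runx factors, AGGAAG, a core bound by Ets factors, and AGGTGTGA, the core bound by T-box factors such as T-bet and Eomes.
Gzmb, chr14:56262285-56262584, minus strand: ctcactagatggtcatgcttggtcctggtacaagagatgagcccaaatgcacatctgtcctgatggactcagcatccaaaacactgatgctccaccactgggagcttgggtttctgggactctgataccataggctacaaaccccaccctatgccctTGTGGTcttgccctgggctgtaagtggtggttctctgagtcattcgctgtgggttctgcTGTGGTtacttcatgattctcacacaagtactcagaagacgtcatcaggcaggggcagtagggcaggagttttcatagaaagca
Nkg7, chr7:43436888-43437187, plus strand: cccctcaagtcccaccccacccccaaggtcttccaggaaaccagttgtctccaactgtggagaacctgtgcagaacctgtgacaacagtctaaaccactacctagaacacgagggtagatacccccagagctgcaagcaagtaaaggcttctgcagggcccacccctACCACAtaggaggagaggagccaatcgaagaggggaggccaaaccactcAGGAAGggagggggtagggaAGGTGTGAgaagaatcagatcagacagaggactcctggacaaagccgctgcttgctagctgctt
Prf1, chr10:61297586-61297885, plus strand: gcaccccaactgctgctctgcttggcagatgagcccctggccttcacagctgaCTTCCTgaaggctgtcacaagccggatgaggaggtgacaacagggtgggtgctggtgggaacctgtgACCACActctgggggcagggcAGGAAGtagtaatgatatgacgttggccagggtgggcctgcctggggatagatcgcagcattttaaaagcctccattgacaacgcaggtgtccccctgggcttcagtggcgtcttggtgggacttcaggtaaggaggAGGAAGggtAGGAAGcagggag

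Of the members, 7 had a promoter in the RefSeq table. The Runx core was present in 5 of them, namely Gzma, Gzmb, Ncr1, Nkg7 and Prf1, and in 16.8% of all 32851 promoters. The Ets core was present in Cd3e, Nkg7 and Prf1 and in 35.4% of all promoters. The T-box element was present in Nkg7 alone and in 1.28% of all promoters. These are matches of letters in a window of 300 bases and not measured binding.

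The targets whose stroma pattern was most like a member's were found by Pearson's correlation of log2 CPM over the 13 stroma sums, among the 14881 kept targets, as a description with no test. Targets of a sum share its depth and its mix of cells. For Il2rb these were Xcl1, a chemokine of NK and CD8 T cells, at r = 0.82, Spp1, osteopontin, at 0.81 and Slco5a1 at 0.80. For Nkg7 they were Ppp2r3c at 0.92, S100a4 at 0.91 and Dok1 at 0.88, and for Gzmb they were Zfp516 and Ccnl1 at 0.86 each and Erdr1 at 0.84. Some leading targets stood little above background themselves, as Olfr1087, an olfactory receptor with a median ratio of 2.18 in stroma, led for Cd8a at r = 0.94, while Hsdl2, with a median ratio of 4.27, led for Cd3e at 0.88. Without PV2 these values ranged from 0.80 to 0.94.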

How the data were processed

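The values used were the authors' deposited counts per target and region, from GeoMx probe counts after removal of duplicate reads by molecular identifier (a median of 8.99 aligned reads per count on the first plate). The authors replaced each count of 0 by 1, took 19959 targets from 1 probe each and 3 as the geometric mean of 2 probes, so these are estimated counts and were rounded after summing. NegProbe-WTX is the authors' geometric mean of 210 negative probes and came to 5.08e-04% of first-plate counts. Deposited signal values scaled by the authors to the third quartile of each region served alternatives only, as did the deposited probe counts with true zeros, of which 1.66% on the first plate were 0. The authors' further steps (GeomxTools, a limit at 2 SD of the negative probes, and a detection filter that kept 14881 targets) follow their methods. The labels name R 4.1.2, Space Ranger and the build mm10.

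The mouse was the replicate. Raw counts of the 95 first-plate regions (61691 to 3130397 counts, median 653387) were summed per mouse and compartment and tested with edgeR 4.0.16 (TMM, glmQLFit and glmQLFTest, two-sided, Benjamini-Hochberg over 14881 targets, threshold 0.05) in R 4.3.3. edgeR may replace its p by a larger one where the spread is below Poisson, as for Gzmb in epithelium and Ncr1 in stroma between genotypes. Stroma against epithelium and its interaction with genotype used 13 mice with the mouse as a block. The pairing comes from the animal itself, and deviations of the same mouse correlated at 0.16 to 0.53 (median 0.30) against -0.04 between mice. CPM is counts per 1000000, for a mouse on its TMM-scaled library size, for a region on its own total. The p-values hold for the spread between these mice. Region totals of the no-template controls were at most 1 count. No pair of regions held equal counts.

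The named genes were all 10 members, Klf9, Krt8, Epcam, Col1a1 and Dcn, up to 5 called genes of lowest p per context list, and up to 3 targets most like a member. A gene that this rule names is not reported here. Members and lists were chosen with earlier results of these data known, among them a low p of Il2rb in stroma. Alternatives were DESeq2 1.42.0, limma 3.58.1, edgeR's likelihood ratio test over regions, other scaling and filters, background subtraction, age, both plates and leaving out each mouse. The scripts were tested on simulated data with 200 changed targets. Gene positions are from GENCODE on GRCm38. Figures and tables used Python 3.11.15.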

Additional observations from a re-analysis of the deposited data

Results flagged for a closer look

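Of 40 groups of mice, 1 per member, compartment and genotype, 5 held a mouse far from the others by Dixon's ratio at the 95% level. Chance alone puts about 1 in 20 groups there. In WT stroma the mouse WT5 had 148.9 CPM of Il2rb, where the other 6 lay between 37.9 and 68.5 CPM, and 73.0 CPM of Nkg7, where the others lay between 28.8 and 41.3 CPM. In PV stroma PV1 had 125 CPM of Gzmb against 14.5 to 30.5 CPM in the other 5 mice. In WT epithelium WT1 had 52.2 CPM of Gzma against 7.87 to 15.1 CPM in the other 7, most of it from 1 region. In PV epithelium PV2 had 30.0 CPM of Il15, which is 2 counts in a sum of 61691.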

How the results depend on the processing

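For stroma against epithelium, a member kept direction and call in 227 repeats with another setting and kept direction but lost the call in 7. Over both plates Cd8a (0.16), Prf1 (0.21) and Gzma (0.28) were not called, and 5631 targets were, against 9380. Prf1 lost its call in limma on per-mouse means (0.34, adjusted p = 0.18) and Gzma lost it at ages 4 to 6.3 (0.57, adjusted p = 0.103), without PV1 (0.53, adjusted p = 0.0579) and with no replicate block, the unpaired fit (0.58, adjusted p = 0.0987; 7933 targets called). Sizes moved as well. Over both plates Il2rb was at 1.17, Il15 at 0.66, Nkg7 at 0.98 and Ncr1 at 0.43, and with background subtracted Ncr1 was at 2.01 and Nkg7 at 2.31. Upper-quartile scaling moved the median of all targets by 0.14 and the share of calls higher in stroma from 54.9% to 66.5%. Leaving out a mouse gave 8 to 9 members and 8875 to 9383 targets.

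For PV against WT in epithelium, 28 targets were called by DESeq2, 1 by limma with the mouse as a random block, 10 with age as a covariate, 1 at ages 4 to 6.3, 0 to 6 without single mice and 3585 by the likelihood ratio test over regions, with 3 members among them, Il15 (-0.42, adjusted p = 0.00255), Nkg7 (-0.52, adjusted p = 0.0142) and Gzma (-0.72, adjusted p = 0.0296). In stroma 2 were called by DESeq2, 2 by limma with the random block, 0 to 1 without single mice and 565 over regions. For the interaction they were 1 by DESeq2, 65 by limma with the random block and 142 over regions.

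No member whose genotype estimate turned sign was called on either side. In epithelium Ncr1 turned to 0.028 in DESeq2, 0.020 with no gene filter, 0.019 with filterByExpr, 0.36 with background subtracted, 0.14 in limma on per-mouse means and 0.066 over both plates, and ran from -0.26 to 0.15 without single mice. Cd3e turned to 0.11 in limma on per-mouse means and 0.061 over both plates, and Cd8a to 0.13 over both plates. In stroma Cd3e turned to -0.14 in limma on per-mouse means, -0.11 with the random block and -0.13 over both plates, Gzmb to -0.49 and -0.43 in both limma fits, Cd8a to -0.015 with the random block and -0.094 over both plates, and Il2rb and Ncr1 to 0.071 and 5.05e-04 over regions. Without single mice Gzmb ran from -0.95 to 0.70, Il2rb from -0.36 to 0.26 and Ncr1 from -0.14 to 0.10.

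The interaction turned in limma on per-mouse means for Cd3e (-0.16), Il15 (-0.037), Nkg7 (-0.72), Ncr1 (-0.37) and Gzmb (-0.26), with the random block for Nkg7 (-0.11) and Ncr1 (-0.0080), over both plates for Cd3e (-0.13), Cd8a (-0.23), Il2rb (-0.13), Il15 (-0.18), Nkg7 (-0.40) and Ncr1 (-0.32), with no replicate block for Nkg7 (-0.038) and Ncr1 (-0.078), and with background subtracted for Ncr1 (-0.29). Without single mice it ran from -0.16 to 0.24 for Nkg7, -0.092 to 0.17 for Ncr1, -0.32 to 0.78 for Gzmb and -0.36 to 0.069 for Prf1.

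Members near background numbered 5 with the limit at a ratio of 3, 4 by 2 SD of the negative probes on the log2 scale, 1 by the median over regions and 0 to 1 without single mice. The negative-probe difference of stroma over epithelium was 0.070 over both plates and 0.21 relative to the third quartile, neither past the threshold (exact sign-flip p = 0.435 and 0.0754). Between genotypes that level differed by 2.55 in epithelium over both plates, and without single mice ran from -0.56 to 2.09 in epithelium and -0.52 to 1.39 in stroma, below 0 without PV2. The cause of these changes was not tested. Depth limits Cd4, Cd8a, Ncr1 and Prf1 most, with 272 to 320 stroma counts each over all mice.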

Other observations

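The second plate was left out of the comparisons because 24 of its 57 epithelium-labelled regions had fibroblast genes above columnar genes and 16 of its 37 stroma-labelled regions the reverse. Its highest single regions by ratio to NegProbe-WTX were 34.4 for Gzmb, in a stroma-labelled region of PV1, 29.7 for Il15 and 27.8 for Il2rb, in epithelium-labelled regions of WT4 and WT5, and 16.8 for Nkg7, in a stroma-labelled region of WT7. WT7 also held the highest stroma-labelled region for Il2rb at 23.6, Il15 at 18.6, Ncr1 at 6.63, Prf1 at 6.03 and Gzma at 6.07.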
